A study of Mus musculus with 3 samples.

Results

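IL-33 is a cytokine of the IL-1 family, and ST2 is its receptor. The 10 genes examined here encode the cytokine (Il33), the receptor ST2 (Il1rl1), the accessory chain that pairs with it (Il1rap), the adaptor Myd88, the kinases Irak1, Irak2 and Irak4, the ubiquitin ligase Traf6 and the inhibitors Tollip and Sigirr. They were taken as every probe whose RefSeq accession belonged to one of these genes, which gave 19 probes of the 56605 non-control probes on the array, and 10 of 22911 genes with a symbol. The values came from Hepa1c1c7 cells, a line derived from a mouse hepatoma, 24 h after transfection with an empty expression vector (pCMV6KN), a vector carrying the Mst1r coding sequence or a vector carrying the Slpi coding sequence. Mst1r is a receptor tyrosine kinase and Slpi a secreted inhibitor of proteases, and the study selected Il33 after Mst1r overexpression. Each group held 1 sample on 1 single-colour array, so no test between groups was possible, and all groups shared the cell line and the transfection reagent. Whether RNA came from fewer cells or from less RNA per cell cannot be told apart in such bulk samples.

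IL-33 is kept in the nucleus of epithelial, endothelial and stromal cells and is released when cells are damaged. It binds ST2, which recruits the accessory chain Il1rap, and the pair gathers Myd88, the Irak kinases and Traf6, which activate the NF-kB and MAP kinase pathways. In liver, IL-33 is known as an alarm signal to innate lymphoid cells and other cells that carry ST2. The question addressed was whether these hepatoma cells held the transcripts needed to make IL-33 or to answer it.

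RefSeq (GRCm38.p6) placed 2 transcription starts at Il33, and the 250 bases before each are shown because the result turns on whether this gene was transcribed. Capitals mark the letters TATAAA, which began 203 bases before the first start and 29 bases before the second.
Il33 upstream start, chr19:29924863-29925112, plus strand: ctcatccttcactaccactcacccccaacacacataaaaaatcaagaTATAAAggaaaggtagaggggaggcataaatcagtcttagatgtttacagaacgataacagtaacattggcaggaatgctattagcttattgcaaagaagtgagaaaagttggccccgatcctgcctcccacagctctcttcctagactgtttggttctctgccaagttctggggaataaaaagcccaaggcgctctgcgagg
Il33 downstream start, chr19:29945540-29945789, plus strand: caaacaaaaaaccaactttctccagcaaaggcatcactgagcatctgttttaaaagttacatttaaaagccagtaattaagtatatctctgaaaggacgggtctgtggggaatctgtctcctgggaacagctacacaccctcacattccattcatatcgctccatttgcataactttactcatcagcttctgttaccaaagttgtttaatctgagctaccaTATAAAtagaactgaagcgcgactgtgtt
The letters TATAAA, searched on both strands, stood in 12.4% of 32851 mouse promoter windows of this length, and in 3 of the 12 windows found for 9 of the 10 genes, both of Il33 and one of Myd88. The NF-kB-like letters GGGNNNNNCC, also searched on both strands and free to overlap the other motif, stood in neither Il33 window, in 6 of those 12 windows and in 45.8% of all windows.

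The arrays carried 48.5%, 46.7% and 48.1% of their probes well above background with empty vector, Mst1r vector and Slpi vector. Well above background is a flag of the image software, which a spot can lack although it is brighter than its surroundings. The dimmest probes that carried this flag had signals of 18.9, 18.8 and 16.6. The Mst1r probe gave 4.15, 4.08 and 3.70 in that order, on no array well above background, and whether it lies in the coding sequence that the vector carries was not examined. The brighter of both Slpi probes gave 6459, 3843 and 6680, and the other, in row 380, gave 106, 91.7 and 85.8. The arrays thus gave no check of the labels through these 2 genes, and Mst1r vector and Slpi vector stand here for what the labels say. The study also measured Mst1r and Il33 by real-time PCR in cells overexpressing Mst1r, which was not analysed here. Of 8 hepatocyte and hepatoma markers, Afp, Alb, Apoa2 and Trf were well above background on all 3 arrays, at signals of 2196 or more, whereas Apoa1, Fgb, Serpina1a and Ttr stayed at 43.1 or less. Of the stellate and fibroblast markers 4 of 5 were well above background throughout, and the summed signal of the list was 48562, 34799 and 46880. Of 5 macrophage markers, Csf1r and Cd68 were well above background on all 3 arrays, at signals of 378 or more. Adgre1 and Clec4f were on none. Of 5 group 2 innate lymphoid and T cell markers, Cd3e was on all 3 (520, 521 and 576), and Gata3, Il7r and Thy1 on none. Of 5 endothelial markers, Pecam1 was on all 3, at signals below 50 (35.9, 32.1 and 24.1), and Cdh5, Kdr and Tek on none. The remaining markers of these lists, Marco, Klrg1 and Vwf, were on some arrays only, at 41.5 or less. Bright spots among probes that were otherwise near background gathered in the rows of the array up to row 128, so the row of each probe is given.

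The Il33 probe of row 29 (NM_001164724) gave a processed signal, which is the background-subtracted intensity on a linear scale, of 8.41, 166 and 3.79 on the empty vector, Mst1r vector and Slpi vector arrays. The files' own error of these signals was 4.01, 17.1 and 3.47. Only the spot on the Mst1r vector array was well above background. After scaling to the 75th percentile of the array, the Mst1r vector signal exceeded that of empty vector at least 10.3-fold and that of Slpi vector at least 11.1-fold, taking the dimmest probe well above background as the limit for the dark side. The measured log2 differences, which rest on dark spots on the other side, were 4.53 ± 0.77 and 5.60 ± 0.73, where the error is the SD between repeated spots of 1 array at these signals and holds no spread between cultures. With normexp background correction in place of the processed signal, the difference from empty vector was 1.88.

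The second Il33 probe, in row 195 and with the same accession, gave 8.10, 4.82 and 4.23, on no array well above background. No fold is given for it, since both sides of every comparison were near background. The signal on the Mst1r vector array thus stood in one of the 2 probes for the gene. Where each probe lies in the transcript was not examined here.

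**Figure D1:**
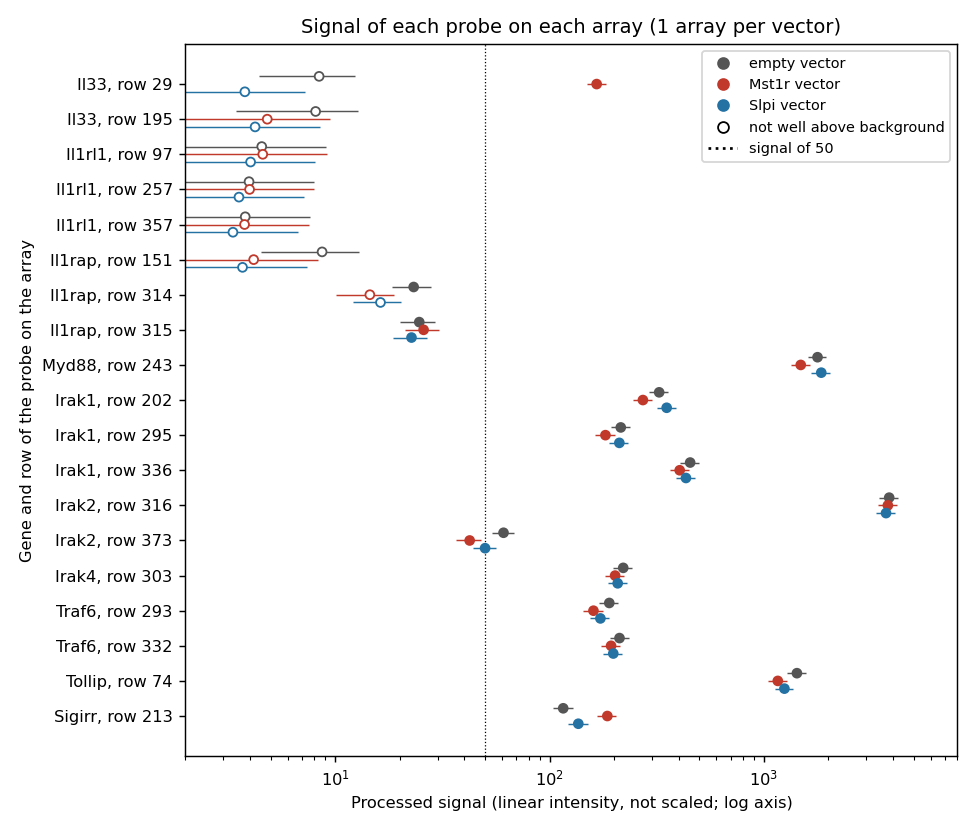
Processed signal (horizontal log axis, not scaled) of the 19 probes of the 10 genes on the 3 arrays, with the row of each probe. Filled points were well above background, open points were not, bars are the files' own error of the signal (where they reach the left edge the axis ends at 2) and the dotted line marks a signal of 50. The Il33 probe of row 29 stood at 166 with Mst1r vector, while the ST2 and accessory chain probes lay left of the dotted line on every array.

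Among the 24 spots around the Il33 probe of row 29, 7 were near background (a signal below 15) on both other arrays, and 1 of these exceeded 50 on the Mst1r vector array, at 63.2. On the empty vector array 2 of 9 such neighbours exceeded 50, the brightest at 120, and on the Slpi vector array 0 of 4 did. The median SD of the background pixels around these spots was 11.1 on the Mst1r vector array, 6.05 with empty vector and 5.86 with Slpi vector. The bright Il33 spot carried no outlier flag. No neighbour of this kind exceeded 50 around the Il33 probe of row 195, or around any probe of the other 9 genes, on any array.

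Within 10 rows of the bright Il33 spot (rows 19 to 39), 39 of 1080 gene probes that were near background on both other arrays exceeded 50 on the Mst1r vector array, a share of 3.61% (95% exact binomial interval 2.58 to 4.90). Of these 39 probes, 5 were at least as bright as Il33. On the empty vector and Slpi vector arrays the share in the same rows was 5.73% (67 of 1169) and 4.36% (48 of 1100). In rows 185 to 205, around the second Il33 probe, 0 of 1515 such probes exceeded 50 with Mst1r vector, which allows a share of up to 0.198%. The part of these stray bright spots in the Il33 signal of row 29 was not tested.

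**Figure D2:**
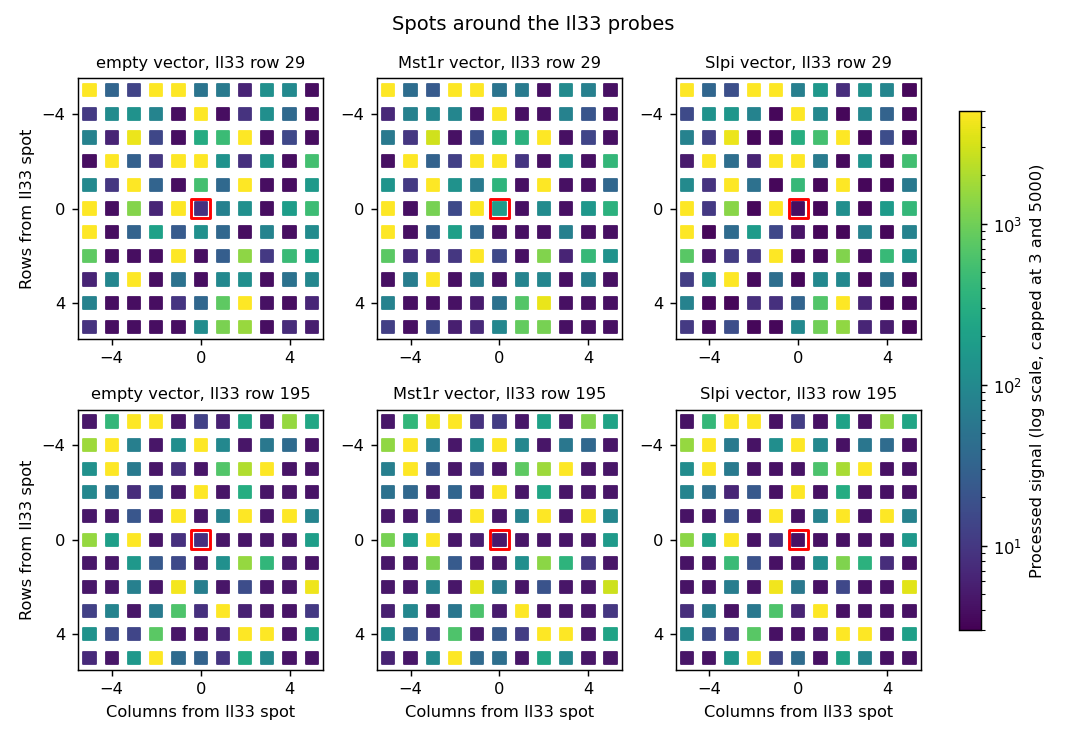
Processed signal (colour, on a log scale) of the spots up to 5 rows and 5 columns from each Il33 probe (red square, with the row of the probe) on the 3 arrays. The Il33 spot of row 29 was bright with Mst1r vector alone, at 166, and that of row 195 was dark on all 3 arrays.

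**Figure D3:**
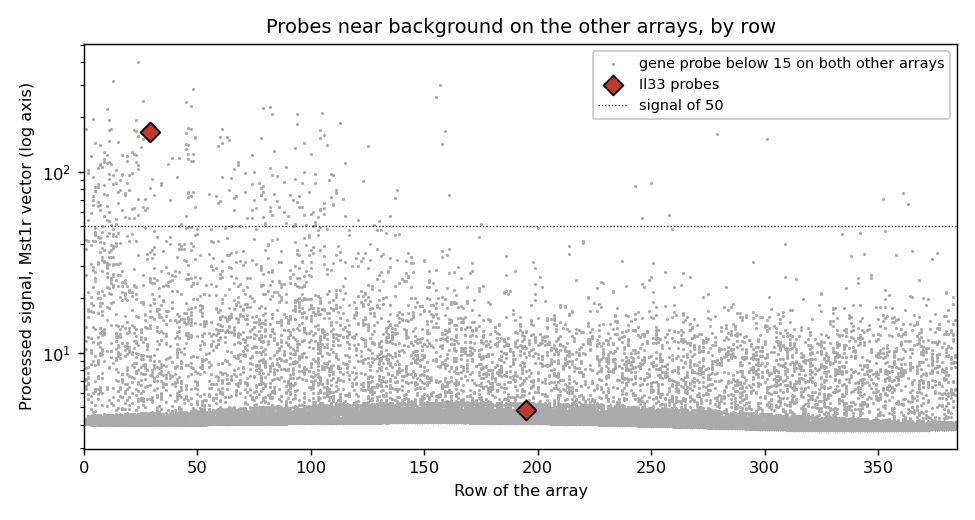
Processed signal on the Mst1r vector array (vertical log axis) against the row of the array for 25628 gene probes with a signal below 15 on both other arrays, with both Il33 probes as red diamonds and a dotted line at 50. Up to row 128, 250 of 7006 of these probes exceeded 50, against 20 of 18622 in the rows after it.

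Il1rl1, the ST2 receptor without which IL-33 is not recognised, had 3 probes (NM_001025602 in rows 97 and 257, NM_010743 in row 357). No array had any of them well above background, and the 9 signals lay between 3.33 and 4.59, below the dimmest probes that carried the flag. For the same reason as at the second Il33 probe, no fold is given for Il1rl1.

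Il1rap, the accessory chain that ST2 shares with the IL-1 receptor, had 3 probes with different accessions. The probe of row 315 (NM_008364) gave 24.7, 25.8 and 22.7 with empty vector, Mst1r vector and Slpi vector, well above background on all 3 arrays, with log2 differences from empty vector of 0.30 ± 0.53 and -0.04 ± 0.53. The probe of row 314 (NM_134103) gave 23.2, 14.5 and 16.3 and was well above background with empty vector alone, where it exceeded Mst1r vector at least 1.05-fold and Slpi vector at least 1.33-fold. The probe of row 151 (NM_001159318) gave 8.68, 4.16 and 3.69, none of them well above background. All 9 processed signals were below 50. The study set its minimum of 50 for these cells on raw expression values, and the raw median of the row 315 spot was 52 with Mst1r vector.

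The 7 other genes, from the adaptor to the inhibitors, were well above background on all 3 arrays with every probe. Myd88, the adaptor that binds the receptor pair, gave signals of 1779, 1486 and 1852 in the same order. Its log2 differences from empty vector were -0.03 ± 0.12 for Mst1r vector and 0.14 ± 0.12 for Slpi vector. The Mst1r vector array, whose signals were lower as a whole, was lowest before scaling and level with empty vector after it. Scaling moved every log2 difference from empty vector by 0.23 for Mst1r vector and by 0.08 for Slpi vector.

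Irak4, the kinase that starts the chain of phosphorylation, gave 221, 202 and 208 in the same order, with log2 differences from empty vector of 0.10 ± 0.27 and -0.01 ± 0.27. Irak1, its substrate, had 3 probes. The brightest (row 336) gave 453, 405 and 433 and the others 325, 273 and 352 (row 202) and 215, 182 and 212 (row 295). Over these Irak1 probes the log2 differences from empty vector ran from -0.02 to 0.07 with Mst1r vector and from 0.01 to 0.19 with Slpi vector.

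Irak2, the kinase known to sustain the signal, gave 3842, 3789 and 3714 at its brighter probe (row 316) and 61.0, 42.4 and 50.02 at the other (row 373). Mst1r vector differed from empty vector by 0.21 ± 0.12 (log2) at the first and by -0.29 ± 0.53 at the second, so the probes differed in sign. Slpi vector differed from it by 0.03 ± 0.12 and -0.21 ± 0.53. Traf6, the ligase that passes the signal on from the Irak kinases, gave 212, 194 and 198 (row 332) and 190, 160 and 173 (row 293). Its 4 log2 differences from empty vector lay between -0.06 and 0.10, each with a spot SD of 0.27.

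Tollip, a protein that holds Irak1 back in resting cells, gave 1426, 1161 and 1247 (row 74). Its log2 differences from empty vector were -0.07 ± 0.12 with Mst1r vector and -0.12 ± 0.12 with Slpi vector. Sigirr, a receptor of the same family that restrains ST2 and IL-1 signalling, gave 116, 186 and 136 (row 213). It was highest on the Mst1r vector array also before scaling. Mst1r vector differed from empty vector by 0.91 ± 0.27 (log2), a 1.88-fold difference, and from Slpi vector by 0.60 ± 0.27. Slpi vector differed from empty vector by 0.31 ± 0.27. Sigirr was thus the gene with the largest difference among the 7, beyond the spot SD for Mst1r vector, and just under 2-fold, and under the other settings tried its difference for Mst1r vector from empty vector lay between 0.66 and 0.95.

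**Figure D4:**
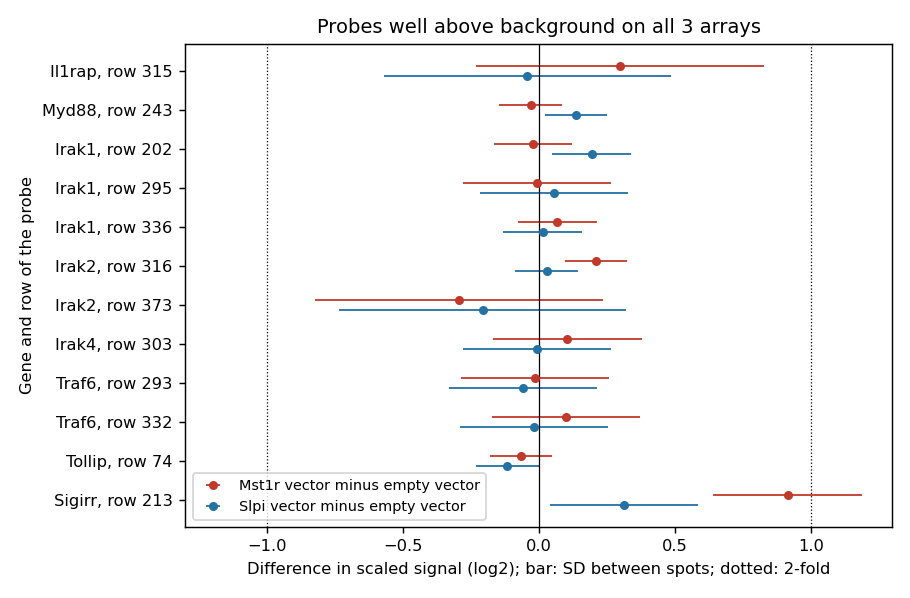
Log2 difference in scaled signal from empty vector for the 12 probes of the 10 genes that were well above background on all 3 arrays, with the SD between repeated spots as bars and dotted lines at 2-fold. The Sigirr probe stood at 0.91 with Mst1r vector, and the other 11 probes lay between -0.29 and 0.30 with either vector.

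With a signal over 50 on the brighter array required, 8 of the 10 genes could be compared between Mst1r vector and empty vector. Only Il33 passed 2-fold, higher with Mst1r vector, and it was compared through its bright array alone. Over all 18026 features compared, 4.38% were at least 2-fold higher while 3.44% were lower by as much, and after row 128 these shares were 2.01% and 0.439%. At 10-fold, the fold that the study used, 1.62% of features were higher in all rows and 0.179% after row 128. The Il33 probe called lay in row 29, and these shares were not computed for rows 1 to 128 alone. As counts, 790 of 18026 features were at least 2-fold higher in all rows, and 224 of 11153 after row 128. At 10-fold these counts were 292 of 18026 and 20 of 11153. The shares over all rows were thus below those in rows 1 to 128. In those rows, 3.57% of gene probes near background on both other arrays exceeded 50 on the Mst1r vector array. Between Slpi vector and empty vector 0 of 7 genes were at least 2-fold apart, against 5.99% of 17825 features in either direction. Between Mst1r vector and Slpi vector 1 of 8 genes was, again Il33, against 4.22% of 17695 features at least 2-fold higher. Any pair of these comparisons shares 1 array.

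The 7 genes well above background on both arrays had a median log2 difference from empty vector of 0.10 for Mst1r vector and of 0.01 for Slpi vector, beside -0.04 and 0.002 over all features well above background on both. In both comparisons 0 of the 7 genes were at least 2-fold apart, where 3.43% of all such features were for Mst1r vector and 2.01% for Slpi vector.

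The wider pathway was described with 81 genes in 7 lists, of which 80 had a matched probe. Of the 56 with a signal over 50, Il6, Fos and Tnf stood 2-fold or more above empty vector on the Mst1r vector array and 0 genes stood as far below it, beside 4.38% and 3.44% of all features. The median log2 difference of the 56 was 0.007. Of 57 genes compared between Slpi vector and empty vector 1, Cma1, was at least 2-fold higher and 0 were lower, beside 5.99% of all features in either direction, with a median of 0.01. Between Mst1r vector and Slpi vector, Il6 and Fos were at least 2-fold higher and Cma1 lower among 56 genes. Over all 17695 features compared, 746 were higher and 483 lower by as much.

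Il6, a cytokine released by cells that IL-33 activates and by many others, had 2 probes with like values. The probe of row 286 gave 114, 543 and 101 on the empty vector, Mst1r vector and Slpi vector arrays, and that of row 62 gave 57.1, 301 and 48.8. For Mst1r vector their log2 differences from empty vector were 2.48 ± 0.22 and 2.63 ± 0.39, and all 6 spots were well above background. With Slpi vector the log2 differences from empty vector were -0.09 ± 0.27 and -0.15 ± 0.53. Il6 was therefore high on the Mst1r vector array at both places on the slide, whereas Il33 was high at one of its places.

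Fos, a subunit of the AP-1 factor that MAP kinases induce, gave 160.5, 319 and 143 at its single probe (row 253). Its log2 difference (Mst1r vector from empty vector) was 1.22 ± 0.22. Tnf, a cytokine of the NF-kB response, gave 178, 312 and 200 at row 77 and 3.82, 3.82 and 3.36 at row 296, where no array had it well above background. The log2 difference at row 77 was 1.04 ± 0.22. Without scaling, 1 gene in place of 3 passed 2-fold with Mst1r vector.

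Over the list of cytokines and chemokines, 9 genes had a signal over 50. With Mst1r vector 7 of them had a positive log2 difference from empty vector, and the median was 0.46. Of the 17206 features over 50 on the brighter array and well above background on both, 7255 were positive, with a median of -0.04. The 5 others of the list, the type 2 cytokines Il4, Il5, Il9 and Il13 and the chemokine Ccl24, were on no array well above background. With Slpi vector the list's median was 0.06, and its largest difference was that of the growth factor Csf2, at 0.33 ± 0.27. Of the NF-kB arm, 11 of 12 genes were well above background, with a median of -0.06 with Mst1r vector and 0.01 with Slpi vector. Nfkbie, an inhibitor of NF-kB, had the largest difference of the list with Mst1r vector, giving 1100, 599 and 970 and a log2 difference of -0.65 ± 0.13. With Slpi vector it was the scaffold Ikbkg, at -0.21 ± 0.14. All 12 genes of the MAP kinase arm were well above background, with medians of 0.01 with Mst1r vector and 0.02 with the Slpi vector.

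Of the IL-1 family ligands 2 of 8 had a signal over 50, and the receptor antagonist Il1rn had the larger differences, -0.06 ± 0.53 with Mst1r vector and 0.33 ± 0.42 with Slpi vector. Of the other receptors and decoys 2 of 8 had, and Il18bp, which binds IL-18, gave 178, 95.9 and 102 at row 8, with log2 differences of -0.66 ± 0.27 and -0.72 ± 0.27. Its second probe (row 73) gave 43.7, 56.7 and 48.5 and differences of 0.61 ± 0.53 and 0.23 ± 0.53, of the opposite sign. Of the kinases, ubiquitin enzymes and brakes 14 of 16 had a signal over 50, each less than 2-fold apart at its brightest probe, where the largest differences were those of Tifa (0.33 ± 0.27, Mst1r vector) and Map3k3 (0.24 ± 0.14, Slpi vector). Irak3, a kinase-like protein that restrains the Irak kinases, is named after its values were seen, because its probes disagreed. Its brightest probe (row 27) gave 165, 116 and 140 (empty vector, Mst1r vector, Slpi vector), with log2 differences from empty vector of -0.28 ± 0.27 and -0.16 ± 0.27. Its probe of row 43 gave 64.6, 23.5 and 319, all well above background, with differences of -1.23 ± 0.42 for Mst1r vector and 2.38 ± 0.22 for Slpi vector, and its remaining probe (row 314) gave 11.3, 10.5 and 14.1, none of them well above background. The part of the stray bright spots of the first rows in these Irak3 signals was not tested.

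The proteases known to cut IL-33 protein were compared because some cuts raise the activity of the cytokine and others end it. Caspases, calpains and neutrophil elastase were well above background and less than 2-fold apart, with the largest difference for Mst1r vector in Elane, which gave 1405, 1568 and 1261 and a log2 difference of 0.39 ± 0.12. Cma1, the mast cell chymase, gave 35.6, 6.98 and 179 at its single probe (row 25). It was not well above background with Mst1r vector. Its log2 difference from empty vector was 2.41 ± 0.42 for Slpi vector, whose signal exceeded that of Mst1r vector at least 8.56-fold. Of the 5 mast cell markers, Kit, Cpa3 and Ms4a2 were on no array well above background. Tpsb2, also among the proteases compared, was on all 3, at 30.0, 39.2 and 41.6, and Mcpt4 with empty vector alone, at 57.5. The summed signal of the list was 99.8, 61.8 and 59.4. The part of mast cells and of the stray bright spots of the first rows in the Cma1 signal was not tested.

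**Figure D5:**
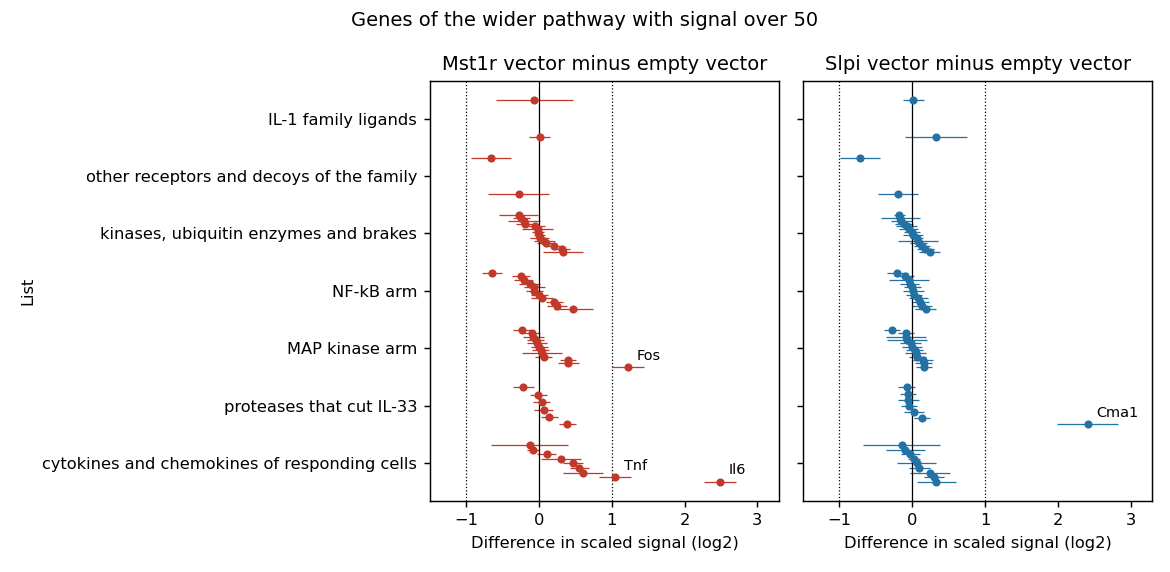
Log2 difference in scaled signal from empty vector for Mst1r vector (left) and Slpi vector (right), for the genes of each list with a signal over 50 on the brighter array. Points are genes, bars the SD between repeated spots and dotted lines 2-fold, and the genes beyond 2-fold, Fos, Tnf, Il6 and Cma1, are named.

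The genes whose values were most like those of the bright Il33 probe were found by the distance between pairs of log2 differences (Mst1r vector and Slpi vector, each from empty vector) over 3 arrays and 12268 named genes. The 5 nearest were Aipl1, Patj, Cyp2b19, Acsm4 and Olfr98, each well above background on the Mst1r vector array alone, so that distances between them rest on dark spots and give no order. Their probes lay in rows 107, 47, 94, 46 and 46, and their signals on the Mst1r vector array ran from 114 to 183 against 3.38 to 10.3 on the others. Among the 7643 compared genes whose brightest probe lay after row 128, the 5 nearest were Ubd, Pag1, Cpt1b, Ifi202b and Gbp5. Of these, Gbp5 was well above background on all 3 arrays and the others with Mst1r vector alone. The log2 distances of these 5 from Il33 were 1.03 to 1.90, against 0.13 to 0.56 for the 5 nearest over all rows. These distances also rest on dark Il33 spots, so no order between the sets is read from them. Ubd, a ubiquitin-like protein induced by cytokines, gave 4.44, 83.2 and 4.08 (empty vector, Mst1r vector, Slpi vector). Pag1 gave 5.07, 74.0 and 4.50 and Cpt1b 11.7, 299 and 13.0. Ifi202b and Gbp5, which interferon is known to induce, gave 4.48, 247 and 4.10 and 35.3, 234 and 33.2. Whether these genes share a function was not tested.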

How the data were processed

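RNA from 3 Hepa1c1c7 samples (empty vector, Mst1r vector and Slpi vector, 1 each) was hybridised by the authors to single-colour Agilent SurePrint G3 Mouse arrays. The deposited files hold spot intensities from Feature Extraction 12.0.3.1: the processed signal, on a linear scale, background-subtracted and spatially detrended by the authors' software, with raw medians and flags. A deposited table of the whole series holds other values, intensities per probe, and lay within 0.00174 (log2) of the mean of all spots for the 19 probes. The fields of other kind that were deposited (row, column, flags) were used as read. The array design build was mm9, and RefSeq GRCm38.p6 served for gene names (25126 of 47837 accessions matched) and promoter windows.

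Here, the log2 of the processed signal was taken as the mean of a probe's spots, outlier-flagged spots left out, and the array's 75th percentile over non-control probes was subtracted (signals of 268, 229 and 254). Each of the 19 probes was on 1 spot. A gene was represented by its brightest probe, and counted as changed at 2-fold or 10-fold with a processed signal over 50 on the brighter array. The methods of the study set this minimum of 50 on raw expression values. With 1 array per group, no p-value was computed, and the number of arrays limits the precision. The spot SD came from 420 probes, controls included, printed at least 10 times on an array, by signal class. Where a side was not well above background, folds are bounds against the higher of the array's dimmest probe well above background and the spot's own signal. Intervals are exact binomial ones and, like the limit that a count of 0 allows (3 counts), cover counting error only. Scripts were tested on simulated data (Python 3.11.15, R 4.3.3 with limma 3.58.1).

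The genes and lists were chosen with earlier results of these data known. Named were the 10 genes, per list the detected gene with the largest difference for each vector, all listed genes at least 2-fold apart, and the 5 genes nearest to Il33. The alternatives were other scalings, background correction, probe rules, rows, filters and the series table. Real-time PCR was not analysed here. One gene that the rule names is not reported here.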

Additional observations from a re-analysis of the deposited data

Results flagged for a closer look

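ERCC control probes, whose target RNA is no mouse transcript, gave signal in the rows around the bright Il33 spot. In rows 19 to 39, 5 of the 127 ERCC control spots that were near background on both other arrays exceeded a signal of 50 on the Mst1r vector array, a share of 3.94% (95% exact binomial interval 1.29 to 8.95), and 1 of them was at least as bright as Il33. It is listed because this share lay above the limit that a count of 0 allows, 2.36%, a value that its interval includes. In the same rows 3 of 127 did with empty vector and 2 of 117 with Slpi vector. In rows 185 to 205, around the second Il33 probe, 0 of 167 did on each array, which allows a share of up to 1.80%. The part of such spots in the Il33 signal was not tested.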

How the results depend on the processing

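No paired analysis was possible because each group held 1 sample, and no replicate could be left out. The log2 difference of Il33 between Mst1r vector and empty vector, 4.53, became 1.88 with normexp background correction and 2.01 with the median over both probes. With the rows after row 128 alone the second probe stands for the gene, and the value, -0.52, lies between 2 spots that were not well above background, so no direction can be read from it. The number of the 10 genes at least 2-fold apart went from 1 to 0 in both comparisons of Mst1r vector with the rows after row 128 and with probes well above background on both arrays, and from 0 to 1 between Slpi vector and empty vector with no filter. In the wider pathway the count of 3 for Mst1r vector against empty vector became 1 without scaling, 1 with normexp and 7 with no filter. The count of 1 for Slpi vector against empty vector became 2 with the median over probes, 0 in the rows after row 128 and 5 with no filter, and that of 3 between Mst1r vector and Slpi vector became 7 with no filter. With Il33 left out, 21 of 288 differences of single genes moved by more than the spot SD. Tollip had no value in the rows after row 128, and Il33, Il1rl1 and Il1rap had none, or not in every comparison, among probes well above background on both arrays. With 1 array per vector, vector and array cannot be told apart, and for Il33 and Il1rl1 signal near background limits what can be read.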
